A study of Mus musculus with 11 samples.

Results

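The set described here consists of microRNAs (miRNAs) best known from blood cells, namely miR-142a, miR-223, miR-150, miR-155, miR-451a and miR-144. All mature forms listed under these 6 names were taken, which gave 10 of the 1096 mature miRNAs in the small RNA tables of the study. The names were put together because miR-142a was much lower after Mov10 knockdown, so the set was chosen by the reads and TPM of miR-142a in these same libraries, and all values of this contrast are given as a description. The question was whether the other members were lower together with it. This differed between members, and for several it was not detectable. The 5p and 3p arms of miR-142a were at 0.182 and 0.136 times their control level, whereas miR-155-5p, the other abundant member, was nearly equal in both libraries, and the interval of miR-150-5p did not reach the ratio of miR-142a-5p. For miR-451a and miR-144 the reads were too few to show even a decrease as large as that of miR-142a. For miR-223, with 12 control and 4 knockdown reads over both arms, the interval of the 3p arm alone reached the ratio of miR-142a-5p. That of both arms summed did not.

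Small RNAs came from cultured spermatogonial progenitor cells (SPCs), which the methods describe as Thy1-positive testis cells. The labels give postnatal day 6 and the strain C57BL/6 for both groups, while the methods name B6;129S-Gt(Rosa)26Sor/J mice for the culture. Cells of both groups were kept on STO feeders, a mouse embryonic fibroblast line, and were transduced with lentivirus, which carried the shRNA vector alone (shVector) in the control and an shRNA against Mov10, the gene of an RNA helicase, in the knockdown. The methods name the shRNA shMov10-832 for the total RNA of the RNA-seq libraries and say that small RNAs were isolated from total RNA samples, while the labels of the small RNA libraries give only Mov10 knockdown. Each group has 1 small RNA library, so the 2 values of a miRNA carry no error between cultures, and whether the triplicate samples named in the methods were pooled is not stated. Mov10 mRNA is not measured in these libraries. In bulk RNA, fewer cells of a type and less of an RNA per cell cannot be told apart.

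A miRNA is cut from a hairpin in its primary transcript by DROSHA and then by DICER, which leaves a duplex of a 5p and a 3p arm, and usually 1 arm is kept in an Argonaute protein. The kept strand finds targets mainly through its seed, bases 2 to 8. miR-142 is produced in nearly all blood lineages. miR-223 marks myeloid cells, miR-150 mature lymphocytes, and miR-144 and miR-451a red cell precursors, where miR-451a is cut by AGO2 without DICER. miR-155 is induced in activated lymphocytes and macrophages and is also made in cells outside the blood.

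Mature sequences are shown for the members on which the comparison turns and for miR-142b, a neighbour that is read from the opposite strand. They are RefSeq sequences on GRCm38.p6, written 5′ to 3′ with the seed in capitals.
miR-142a-5p: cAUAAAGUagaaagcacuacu
miR-142a-3p: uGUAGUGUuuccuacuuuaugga
miR-142b: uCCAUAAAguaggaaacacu
miR-155-5p: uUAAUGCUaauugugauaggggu
miR-155-3p: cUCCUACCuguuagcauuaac
miR-223-3p: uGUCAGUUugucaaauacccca
miR-451a: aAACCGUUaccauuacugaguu

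A sequence was found for 9 of the 10 members and for 908 of the 1096 listed miRNAs. No seed was shared, either among the members or with any of the other 907 miRNAs searched. The GC content of the 9 members lay between 30.0% and 43.5%, below the median of 50.0% over the 908 miRNAs. Mir142 lies at chr11:87756864-87756927 on the plus strand, in an intron of the long noncoding gene Mir142hg. Mir155 lies at chr16:84714140-84714204, in an exon of Mir155hg, and Mir223 at chrX:96242817-96242926, in an exon of F630028O10Rik. Mir144 (chr11:78073005-78073070) and Mir451a (chr11:78073170-78073241) form a pair outside other genes, with 99 bases between them.

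The control library had 9628835 reads on miRNAs and the knockdown library 2794593. Levels are given as TPM, which here is the number of reads per 1000000 of a library total of 10518277 control and 3194363 knockdown reads, without a correction for length. One read was worth 0.0951 TPM in the control and 0.313 TPM in the knockdown, and 3 reads, taken as the lowest detectable level, 0.285 and 0.939 TPM. Intervals are exact 95% intervals for the read counts and cover counting error only. As a check of the cells, miR-182-5p, which is abundant in germ cells, was the most abundant miRNA of control SPCs at 142065 TPM. After knockdown miR-182-5p was at 103395 TPM, just below miR-21a-5p at 107056 TPM. Both arms of the stem cell miRNAs miR-291a, miR-292a, miR-293, miR-294 and miR-295 were above 3 reads in both libraries, while miR-290a-3p of the same group had 33 control reads and 1 knockdown read.

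For miR-142a-5p, 1663 reads were counted in control SPCs, against 92 after Mov10 knockdown. This corresponds to 158 TPM (151 to 166) and 28.8 TPM (23.2 to 35.3). The level in the knockdown was 0.182 times that in the control (0.146 to 0.225), a log2 fold change of -2.45 with 0.1 TPM added to both values. At the control level, 505 reads would have been expected at the depth of the knockdown library. By number of reads it went from place 168 to place 275 of the 1096 miRNAs.

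The other arm, miR-142a-3p, had 121 control and 5 knockdown reads, or 11.5 and 1.57 TPM. Its ratio was 0.136 (0.0434 to 0.326) and its log2 fold change -2.80. The intervals of the ratios of the 2 arms overlap widely. The 5p arm made up 93.2% of the miR-142a reads in the control (91.9 to 94.3%, exact Clopper-Pearson interval) and 94.8% in the knockdown (88.4 to 98.3%). Thus the balance of the arms was not distinguishable between the libraries, and this share does not depend on how the libraries are scaled.

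The hairpin of miR-142b lies on the minus strand at chr11:87756841-87756955 and covers the whole 64 bp of Mir142. Its mature form of 20 nt is the exact reverse complement of a stretch of miR-142a-3p. It also resembles miR-142a-5p, with 16 of 18 aligned bases equal and the substitutions A11G and G14A, counted from 1 at the 5′ end of miR-142a-5p. Reads were mapped without mismatch, so a read that spans these bases is assigned to only 1 of them, although the handling of shorter shared reads is not stated. For miR-142b, 202 control reads and 10 knockdown reads were found, which is 19.2 and 3.13 TPM, a ratio of 0.163 (0.0770 to 0.306) and a log2 fold change of -2.58. Of all reads on miR-142a and miR-142b, 10.2% (8.88 to 11.6%) were miR-142b in the control and 9.35% (4.57 to 16.5%) in the knockdown. All 3 mature forms of the locus were therefore lower in the knockdown library, by similar factors within counting error.

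**Figure D1:**
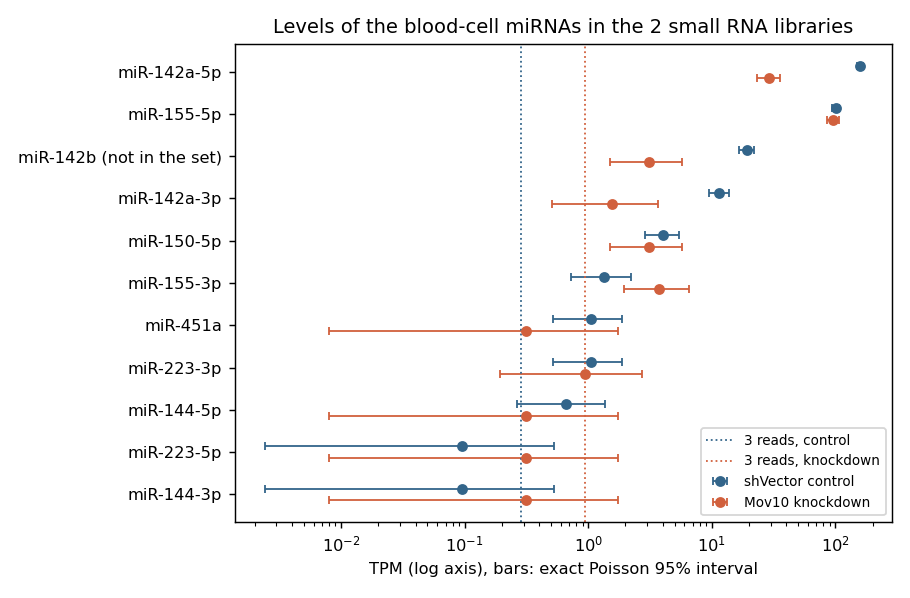
Level of each blood-cell miRNA and of miR-142b in TPM on a log axis, in the control (blue) and the knockdown library (orange), with exact Poisson 95% intervals and dotted lines at the level of 3 reads in each library. The intervals of the 2 libraries are far apart for miR-142a-5p, miR-142a-3p and miR-142b and overlap for all other members shown.

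miR-155-5p, the other member with many reads, was counted 1054 times in control SPCs and 305 times after knockdown. Its level was 100.2 TPM (94.2 to 106) in the control and 95.5 TPM (85.1 to 107) in the knockdown. The ratio was 0.953 (0.836 to 1.08) and the log2 fold change -0.07, so no difference was visible beyond counting error, and the interval does not reach the ratio of miR-142a-5p. With 320 reads expected and 305 found, miR-155-5p kept its position among the miRNAs, at place 208 in the control and 199 in the knockdown. Its log2 fold change was 0.18 when the libraries were scaled by the median ratio of the miRNAs, so its direction depends on the scaling.

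miR-155-3p, the minor arm, was counted 14 times in control SPCs and 12 times after knockdown, or 1.33 and 3.76 TPM. Its ratio of 2.82 (1.19 to 6.57) is the only one above 1.5-fold among the members above the minimum of 1.5 TPM. It passed this minimum in the knockdown library only, and no member was raised when the minimum was required in both libraries. The 5p arm held 98.7% (97.8 to 99.3%) of the miR-155 reads of control SPCs and 96.2% (93.5 to 98.0%) in the knockdown. This difference rests on 12 reads of the minor arm in the knockdown, and the intervals of the shares overlap slightly. For both arms of miR-155 together, the ratio was 0.977 (0.859 to 1.11).

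For miR-150-5p, 42 control and 10 knockdown reads were counted. The levels were 3.99 and 3.13 TPM, with a ratio of 0.784 (0.351 to 1.59) and a log2 fold change of -0.34. A total of 12.8 reads was expected at the control level. The interval includes no change as well as a 2-fold decrease, but not a ratio as low as that of miR-142a-5p.

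The mature forms of the myeloid and red cell members had at most 11 reads each in the control and at most 3 in the knockdown. miR-223-3p had 11 and 3 reads (1.05 and 0.939 TPM), with a ratio of 0.898 (0.161 to 3.40). miR-451a also had 11 reads in the control but 1 in the knockdown (1.05 and 0.313 TPM), and its ratio of 0.299 had an interval of 0.00695 to 2.06. At the control level, 3.34 reads of either would be expected in the knockdown library. For each of these 2 mature forms alone, a decrease of the size seen for miR-142a was thus not detectable at this depth. Both arms of miR-223 summed had 12 control and 4 knockdown reads, a ratio of 1.10 (0.258 to 3.62). This interval does not reach the ratio of miR-142a-5p, but the 5p arm adds only 1 read in each library.

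Of miR-144-5p, 7 control reads and 1 knockdown read were found, and miR-144-3p and miR-223-5p had 1 read in each library. Together, miR-144 and the adjacent miR-451a had 19 control and 3 knockdown reads, with a ratio of 0.520 (0.0985 to 1.77). Without miR-142a and miR-155, the other 6 mature forms summed to 73 of the 9628835 miRNA reads of the control library and 17 in the knockdown. Of the 73 control reads, 42 were miR-150-5p, which was above the limit of detection in both libraries. Each mature form of miR-223, miR-451a and miR-144 was at or below that limit in the knockdown library.

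**Figure D2:**
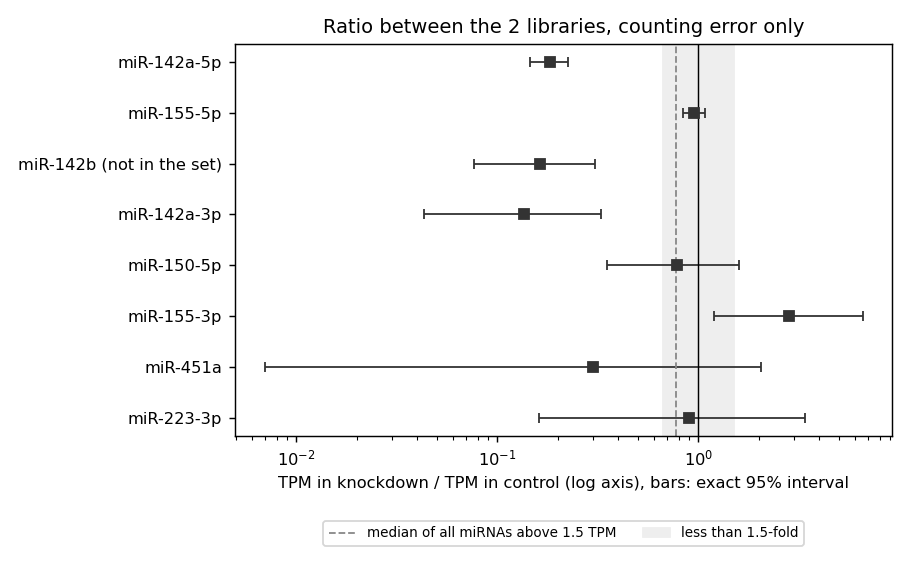
Knockdown level divided by control level, both in TPM, on a log axis for the miRNAs with at least 10 reads in both libraries together, with exact 95% intervals for counting error, the range under 1.5-fold in grey and the median of all miRNAs as a dashed line. The 3 mature forms of the miR-142 locus lie left of the grey range, miR-155-5p lies close to 1 and the intervals of miR-451a and miR-223-3p are wide.

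Over all miRNAs, 607 were above 1.5 TPM in at least 1 library, and 253 of them (41.7%) were reduced and 97 (16.0%) raised over 1.5-fold, with a median log2 fold change of -0.37. A total of 5 members passed this minimum, of which 2 were reduced, 1 was raised and 2 differed by less than 1.5-fold. Without the minimum, 4 of the 10 members were reduced and 3 raised, beside 52.8% and 19.0% of the 1096 miRNAs. Both reduced members above the minimum are arms of the hairpin that chose the set, and nothing is read from these numbers. The median of the 5 was -0.34, close to that of all miRNAs, but it is the value of miR-150-5p and hides a range from -2.80 to 1.43. Counted from the lowest log2 fold change of the 607, miR-142a-3p was at place 7, miR-142b at 16 and miR-142a-5p at 19, while miR-150-5p was at place 307, miR-155-5p at 370 and miR-155-3p at 588.

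**Figure D3:**
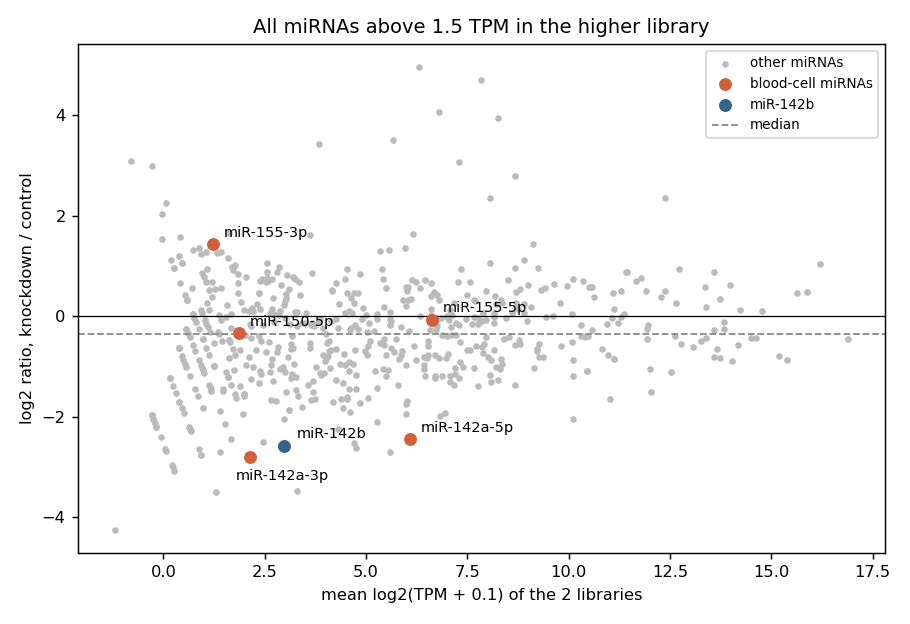
Log2 ratio of knockdown to control against the mean log2(TPM + 0.1) of the 2 libraries for the 607 miRNAs above 1.5 TPM, with the blood-cell miRNAs in orange and miR-142b in blue. The miR-142 forms lie at the lower edge, between -2.80 and -2.45, whereas miR-150-5p and miR-155-5p lie near the dashed median of -0.37 and near 0.

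The summed level of the 10 members was 278 TPM in the control and 135 TPM in the knockdown, a ratio of 0.485 (0.438 to 0.537). Without miR-142a, the sum of the other 8 mature forms was 108 and 105 TPM, with 1141 and 334 reads, a ratio of 0.964 (0.851 to 1.09) and a log2 fold change of -0.05. miR-155 accounted for most of these reads. When it was also left out, the ratio was 0.767 (0.424 to 1.31). miR-142a made up 61.0% of the reads of the members of control SPCs and 22.5% after knockdown. The shares of miR-155 were 36.5% and 73.5%.

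**Figure D4:**
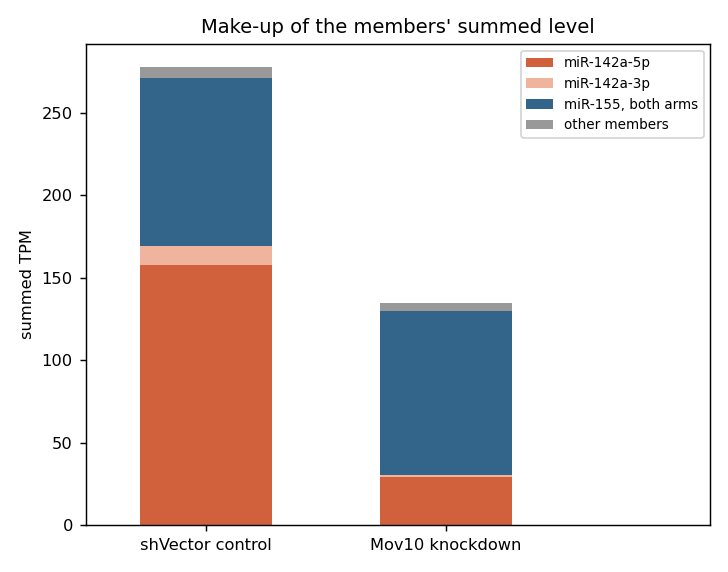
Summed TPM of the 10 blood-cell miRNAs in the 2 libraries, split into miR-142a-5p, miR-142a-3p, miR-155 and the other members. The bar is 278 TPM high in the control and 135 TPM in the knockdown, while the part of miR-155 is of nearly equal height, 102 and 99.2 TPM.

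The miRNAs most like miR-142a-5p were sought among the 98 non-members whose control level was within 2-fold of it, by the difference of their log2 fold changes between these 2 libraries. The nearest were miR-1195 (-2.70), miR-128-1-5p (-2.11), miR-669a-3p (-2.00), miR-466b-3p (-1.96) and miR-541-5p (-1.94). For miR-142a-3p, the nearest of 118 candidates were miR-330-3p (-2.70), miR-142b (-2.58), miR-483-3p (-2.51), miR-376b-3p (-2.44) and miR-96-3p (-2.15). The last group had at most 10 reads each in the knockdown library.

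Other miRNAs that are frequent in blood cells, but were not among the members, were also compared. Of 12 mature forms of miR-342, miR-486a, miR-486b, miR-146a, miR-147 and miR-363, 9 were above the minimum, 5 of these were reduced and 1 was raised over 1.5-fold, and their median log2 fold change was -0.78, beside 41.7% reduced and 16.0% raised and a median of -0.37 over all 607 miRNAs. Among the 5 were both miR-486a-5p and miR-486b-5p, so the same mature sequence was counted more than once. The summed level of all 12 forms was 4772 TPM in the control and 2632 TPM in the knockdown. Most of it was miR-486a-5p and miR-486b-5p, abundant in red cells and muscle, which have the same mature sequence, so that the split of reads between them is uncertain. For miR-486b-5p, 21586 control and 3084 knockdown reads were counted, and its ratio was 0.470 (0.453 to 0.489).

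miR-146a-5p, a miRNA induced by inflammatory signals, had 5267 and 1825 reads, or 501 and 571 TPM, with a ratio of 1.14 (1.08 to 1.20). miR-342-3p, known from lymphocytes, was at 156 and 119.9 TPM, and its ratio was 0.767 (0.684 to 0.857). The other arm, miR-342-5p, had 48 control and 5 knockdown reads and a ratio of 0.343 (0.107 to 0.857), and miR-363-3p had 70 and 7 reads and a ratio of 0.329 (0.128 to 0.715). The intervals of these last 2 reach the ratio of miR-142a-5p, whereas those of miR-486b-5p, miR-342-3p and miR-146a-5p do not. The endothelial miR-126a-5p was at 503 and 336 TPM, a ratio of 0.668 (0.625 to 0.714), and its 3p arm had a ratio of 0.661 (0.562 to 0.773).

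The 10 fibroblast miRNAs of the miR-143, miR-145a, miR-199a, miR-199b and miR-214 hairpins had a median log2 fold change of 0.14. None was reduced and 1 was raised over 1.5-fold, beside 41.7% reduced and 16.0% raised over all miRNAs. The summed level of the 10 fibroblast miRNAs, led by miR-143-3p, was 27675 TPM in the control and 32318 TPM in the knockdown. The germ and stem cell list holds both arms of the miR-96, miR-182, miR-183, miR-290a, miR-291a, miR-292a, miR-293, miR-294 and miR-295 hairpins. Of these 18 miRNAs, 13 were reduced and none was raised, beside the 41.7% reduced and 16.0% raised over all miRNAs. Their median was -0.74 and their summed levels were 155195 and 111844 TPM. Other miRNAs of these cells were left out and did not all decrease, so the counts hold for this list only. Of those that the paper names for SPC fate, miR-21a-5p had a log2 fold change of 1.04, miR-20a-5p of -0.41 and miR-106a-5p of -1.84. By RT-qPCR the paper reports lower mature levels of each of these after knockdown, so miR-21a-5p went the opposite way in these libraries. The value of miR-106a-5p rests on 38 control and 3 knockdown reads. The part of these cell types in the values of miR-142a was not tested. The log2 fold change of miR-142a-5p was below those of all miRNAs in these lists except miR-290a-3p, with 33 control reads and 1 knockdown read. Since miR-142a was chosen for its decrease in these same libraries, nothing is read from this order.

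**Figure D5:**
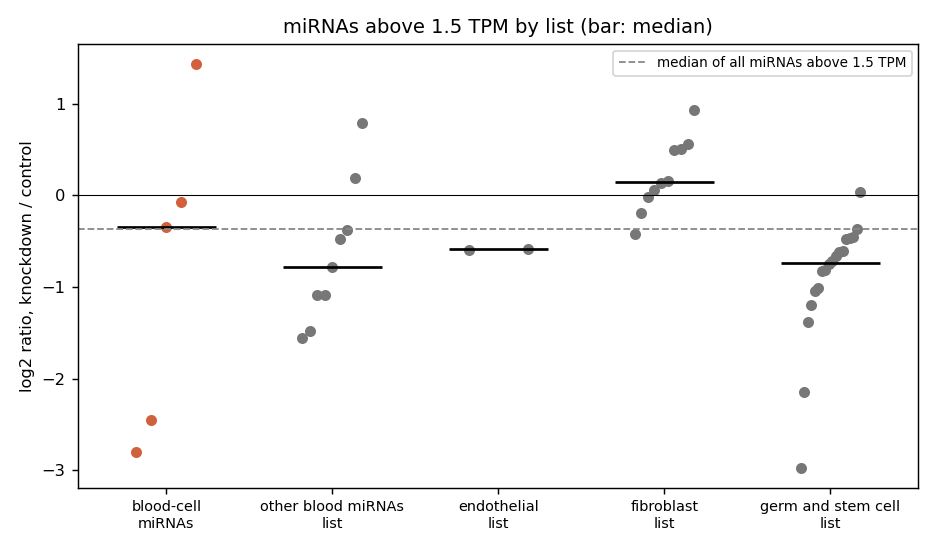
Log2 ratio of knockdown to control for the miRNAs above 1.5 TPM in each list, 1 point per mature miRNA, with the median of each list as a bar and the median of all 607 miRNAs as a dashed line. The blood-cell miRNAs spread from -2.80 to 1.43, whereas the fibroblast list centres on 0.14 and the germ and stem cell list on -0.74.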

How the data were processed

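Each group of SPCs, vector control and Mov10 knockdown, has 1 small RNA library. RNA-seq and CLIP-seq samples were not analysed here. After removal of rRNA and adaptors, the authors aligned reads to miRBase without mismatch in CLC Genomics Workbench and deposited read counts per mature miRNA. The authors also deposited TPM, which equals reads divided by a library total, without length correction. The totals were obtained here as reads divided by TPM.

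Ratios of TPM are given with exact conditional binomial 95% intervals and read counts with exact Poisson intervals. For log2 fold changes, 0.1 TPM was added to both values, and reduced or raised means over 1.5-fold with more than 1.5 TPM in the higher library. No p-value is given, since each group has 1 library and the set was chosen from this contrast. The calculations were tested on simulated data.

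The members and lists were chosen with earlier results of these data known. Named miRNAs are all members, miR-142b, the members of the lists and miRNAs that the paper names for SPC fate. Also named, for each arm of miR-142a, are the 5 non-members nearest in log2 fold change with a control level within 2-fold. Sequences and positions are from RefSeq (GRCm38.p6) and host genes from GENCODE vM21. TMM factors came from edgeR 4.0.16 in R 4.3.3, and all else from Python 3.11.15 with scipy 1.17.1, pandas 2.3.3, numpy 2.4.6 and matplotlib 3.10.9.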

Additional observations from a re-analysis of the deposited data

How the results depend on the processing

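No paired analysis was possible because only 1 small RNA library was made per group, and for the same reason none was left out. Low members are limited by the depth of the knockdown library. The alternatives were other scalings, minima, pseudocounts and thresholds, and the sum of both arms per hairpin. Leaving out miR-155 and adding miR-142b were chosen after seeing the data.

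Both arms of miR-142a stayed reduced over 1.5-fold under every scaling, pseudocount and minimum run, with log2 fold changes from -4.16 to -2.20 for the 5p arm and from -4.33 to -2.29 for the 3p arm. Without a minimum, 4 members were reduced and 3 raised, beside 52.8% and 19.0% of the 1096 miRNAs. Of the 3, miR-223-5p and miR-144-3p had 1 read in each library and passed only through the smaller total of the knockdown library. With a minimum of 10 TPM none (0) was raised and the median of the members was -2.45. This is the value of miR-142a-5p, an arm of the hairpin that chose the set. With the minimum in both libraries none (0) was raised and the median was -1.40, midway between miR-142a-5p and miR-150-5p. With arms summed, 1 hairpin was reduced and 0 were raised. The log2 ratio of all members was -1.04, and -0.79 after scaling by the median ratio, -0.82 with TMM and -2.76 with 1 total for both libraries. For members other than miR-142a it was -0.05, and 0.20, 0.16 and -1.77 under these scalings, and -0.38 without miR-155. The log2 shift of the knockdown against the control that these scalings remove was -0.25 for the median ratio and -0.22 for TMM. With 1 total for both libraries, which only compares reads, 4 members were reduced, 0 were raised, the median was -3.06 and miR-155-3p turned to -0.21. This follows from the ratio of the library totals. Shares over all miRNAs were calculated only for the main setting and without a minimum, so nothing is read from the other counts.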
